A study of Mus musculus with 10 samples.

Results

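Natural killer (NK) cells of SW1 melanoma tumors were examined in mice that drank control water or water with L-fuc (L-fucose). A cell was chosen by its counts of unique molecular identifiers (UMIs, each counting 1 captured RNA molecule). It had at least 1 UMI of Ncr1 or Klrb1c, at least 1 of Nkg7, no UMI of Cd3d, Cd3e or Cd3g and at most 2 of C1qa, C1qb and C1qc together. It also had at least 500 genes and at most 10% mitochondrial UMIs, and cells that passed these last limits are called kept cells. The rule found 644 NK cells among 31156 kept cells and 41936 barcodes. There were 15 NK cells in pretreatment day 0, 197 in control day 7, 423 in L-fuc day 7, 3 in control day 21 and 6 in L-fuc day 21.

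SW1 is a melanoma cell line that was grown under the skin of C3H/HeJ mice, a strain with a defective Tlr4 allele, which all groups therefore shared. Female mice were 4 to 6 weeks old, and CD45+ cells were sorted from the tumors. The pretreatment tumors (3 mice) were taken before any L-fuc was given, and the others after 7 or 21 days of control water or of water with 100 mM L-fuc. The labels give 10 days of tumor growth before treatment, where the study's methods give a longer time, and 6 mice per arm in the extraction protocol but 5 in the treatment protocol. They do not say whether these mice cover each day or both days, and they name the day 0 pool as control treated. The extraction protocol writes the L-fuc dose as 100 nM, and 100 mM stands in the treatment protocol and in the study's methods. Every condition was 1 pooled library, so there were no replicates and no test, and all intervals are 95% intervals that cover counting error only. Mice, cohort and library therefore cannot be told apart from the treatment.

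NK cells are innate lymphocytes that kill stressed, infected or transformed cells without a rearranged antigen receptor. They weigh signals of activating receptors, such as NKp46 (encoded by Ncr1) and NKG2D (Klrk1), against those of inhibitory receptors that bind class I molecules, including many members of the Ly49 family (Klra genes). A target is killed when granules release perforin (Prf1), which lets granzymes (Gzma, Gzmb) enter it, and NK cells also call in dendritic cells and T cells with chemokines such as Ccl5 and Xcl1. In tumors they are found beside type 1 innate lymphoid cells (ILC1), resident relatives that share several of their receptors.

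The promoters of the main genes of the killing machinery are printed because Gzma, Gzmb and Prf1 are the granule genes the results turn on, each past 2-fold between the day 7 libraries. They hold the 250 bases before the RefSeq start on GRCm38.p6, which for Gzmb and Prf1 is not the GENCODE start given with the genes below, 5′ to 3′ on the strand of the gene. Gzma lies at chr13:113100982-113101231 (minus strand), Gzmb at chr14:56262335-56262584 (minus strand) and Prf1 at chr10:61297586-61297835 (plus strand). Capitals mark matches on either strand to a T-box motif (GTGTGA), a RUNX motif (TGTGGT) and an ETS motif (GGAAGT).
Gzma: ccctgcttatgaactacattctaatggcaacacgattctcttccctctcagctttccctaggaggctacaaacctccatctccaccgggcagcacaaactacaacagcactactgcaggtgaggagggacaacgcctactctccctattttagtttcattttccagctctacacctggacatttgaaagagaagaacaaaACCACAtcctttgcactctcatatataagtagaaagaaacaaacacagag
Gzmb: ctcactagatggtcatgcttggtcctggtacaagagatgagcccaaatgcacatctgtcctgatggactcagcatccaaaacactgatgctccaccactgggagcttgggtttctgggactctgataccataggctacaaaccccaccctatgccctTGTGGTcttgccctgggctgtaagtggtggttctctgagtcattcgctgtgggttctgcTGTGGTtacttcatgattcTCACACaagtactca
Prf1: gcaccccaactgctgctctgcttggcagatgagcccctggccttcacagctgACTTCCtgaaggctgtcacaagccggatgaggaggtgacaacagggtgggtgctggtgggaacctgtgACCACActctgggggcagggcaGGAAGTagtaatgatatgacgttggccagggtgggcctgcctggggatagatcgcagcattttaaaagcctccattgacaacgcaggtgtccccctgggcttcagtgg
Gzma held 1 RUNX match, 50 to 45 bases before its start. Gzmb held 1 T-box match, 15 to 10 bases before its start, and 2 RUNX matches at 93 to 88 and 34 to 29 bases. Prf1 held 1 RUNX match at 130 to 125 bases and 2 ETS matches at 198 to 193 and 108 to 103 bases. Among 27025 mouse promoters of this length, 12.23% held the T-box letters, 14.18% the RUNX letters and 19.99% the ETS letters. A match describes letters and not a bound site.

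The libraries differed in depth and in the share of barcodes kept. They held 14439185 UMIs in pretreatment day 0, 119047810 in control day 7, 88986101 in L-fuc day 7, 21727157 in control day 21 and 16589803 in L-fuc day 21. Kept cells were 85.2%, 86.3%, 59.1%, 57.1% and 82.8% of the barcodes in the same order. The median NK cell had 3231, 2209, 3389, 1200 and 6346.5 UMIs, so that NK cells of L-fuc day 7 were more deeply sequenced than those of control day 7. Of the NK barcodes, 21 also occurred in another library (7 in control day 7 and 14 in L-fuc day 7), and none was an NK cell in more than 1 library. No barcode stands for a mouse, so the spread between mice is unknown.

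The values that chose the cells are given as a description. Ncr1, the receptor NKp46, was found in 593 of the 644 NK cells and Klrb1c (NK1.1 in other strains) in 233, with 182 carrying both. Gzma, listed with the markers but not used by the rule, had a UMI in 501. Just inside the rule, 185 cells had exactly 1 UMI of Ncr1 and Klrb1c together (97 of them in control day 7 and 83 in L-fuc day 7), 86 had exactly 1 of Nkg7 and 84 had exactly 2 of the C1q genes. Just outside it, 336 cells failed only through Cd3 UMIs (129 of them with a lone Cd3 UMI), 318 only through Nkg7, 298 only through C1q (60 of them with 3 UMIs), 13 only through the number of genes and 6 only through mitochondrial UMIs. Summed over NK cells and scaled to a total of 1000000 (CPM), Ncr1 stood at 1012, 489, 889, 2227 and 1274 CPM in the 5 libraries in the order above. Nkg7, a granule membrane protein, stood at 1420, 1026, 2766, 1875 and 2090 CPM.

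NK cells took a larger share of the L-fuc day 7 library than of the control day 7 library. They were 1.02% (0.572 to 1.68) of kept cells in pretreatment day 0, 1.10% (0.953 to 1.26) in control day 7, 4.68% (4.26 to 5.14) in L-fuc day 7, 0.191% (0.0393 to 0.556) in control day 21 and 0.508% (0.187 to 1.10) in L-fuc day 21. The L-fuc share at day 7 was 4.25-fold (3.58 to 5.06) that of control, outside counting error. At day 21 the ratio was 2.66 (0.568 to 16.4) from 6 and 3 cells, which cannot show a difference at this depth. These are shares of sequenced cells, and the number of NK cells in a tumor was not measured.

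The size of the day 7 difference depended on what NK cells were counted against. Ptprc encodes CD45, the sorted marker, and it was found in 4940 of 17897 kept cells of control day 7 and in 3962 of 9034 of L-fuc day 7. Per kept cell with a Ptprc UMI, NK cells were 3.30% of control day 7 and 9.84% of L-fuc day 7, a ratio of 2.98 (2.48 to 3.60). T cells, taken by a rule of at least 2 Cd3 UMIs, no Ncr1 or Klrb1c UMI and at most 2 C1q UMIs, were also a larger share of kept cells, at a ratio of 2.35 (2.13 to 2.61). NK cells made 21.9% of NK plus T cells in control day 7 and 33.6% in L-fuc day 7, and the ratio of NK cells per T cell was 1.81 (1.52 to 2.15). In cells with no Ptprc UMI the rule still found 34 of 12957 cells in control day 7 and 33 of 5072 in L-fuc day 7, and none in the other libraries.

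**Figure D1:**
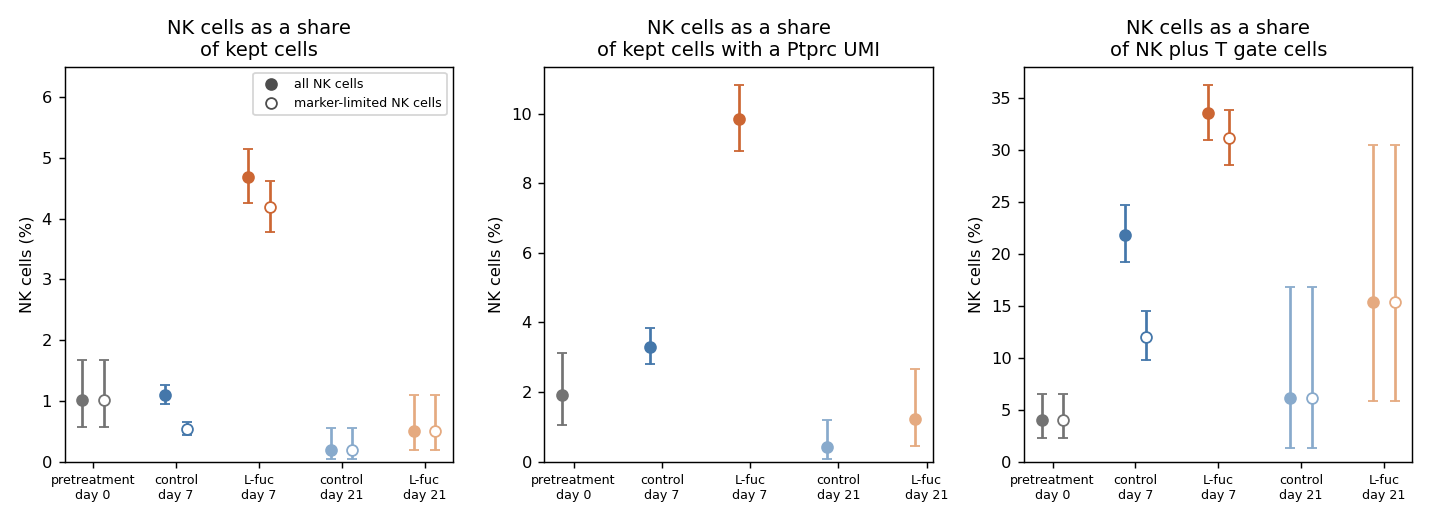
Share of NK cells (%) in each of the 5 libraries, among kept cells, among kept cells with a Ptprc UMI and among NK plus T gate cells. Filled points are all NK cells, open points the marker-limited NK cells, and bars are exact binomial 95% intervals; L-fuc day 7 has the highest share in each panel, 4.68% of kept cells against 1.10% in control day 7.

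Many NK cells of control day 7 also carried transcripts of tumor and stromal cells. A list of 13 such markers, led at day 7 by Sparc (a matrix protein made by melanoma and stromal cells), summed to 15.1 CPM in NK cells of pretreatment day 0, 3135 in control day 7, 1292 in L-fuc day 7 and 0 in both day 21 libraries, with 10 and 9 of the 13 detected in the day 7 libraries. Sparc alone was at 2123 CPM in control day 7 and 851 CPM in L-fuc day 7, while the pigment genes Pmel, Dct and Tyr were at 0 in both. More than 2 UMIs of the list were found in 101 of 197 NK cells of control day 7 (51.3%, holding 74.1% of the NK UMIs) and in 41 of 423 of L-fuc day 7 (9.69%, holding 28.2%). Sparc was also found in the other cells, at 2063 and 740 CPM in T cells and 1118 and 541 CPM in macrophages, and after thinning to 1500 UMIs it was found in 65.4% and 13.3% of NK cells and 70.9% and 18.8% of T cells. The NK cells with more than 2 were deep, at a median of 4519 and 14481 UMIs. Each day 7 gene comparison is therefore given for all NK cells and for those with at most 2 tumor and at most 2 mast cell marker UMIs, called marker-limited NK cells, a limit chosen after seeing the data. They numbered 96 in control day 7 and 378 in L-fuc day 7, and still summed to 527 and 108 CPM of the tumor list. Their share of kept cells was 0.536% and 4.18%, a ratio of 7.80 (6.22 to 9.86). Their ratio per T cell was 3.32 (2.64 to 4.19). The limit was set on NK cells alone and not on kept cells or T cells. It removed a larger part of the NK cells of control day 7, so both ratios rose by its construction.

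**Figure D2:**
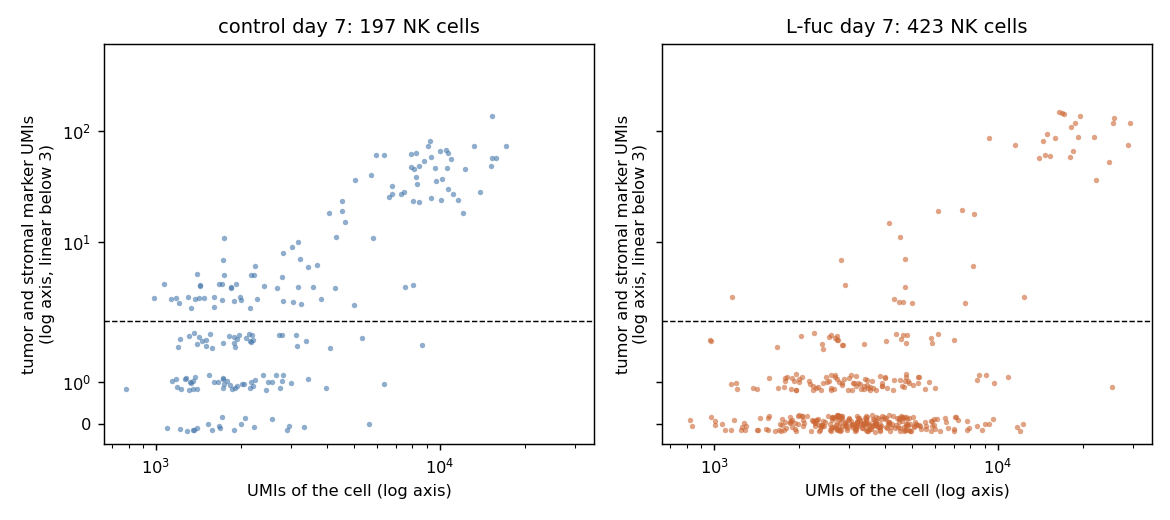
UMIs of 13 tumor and stromal markers (log axis, linear below 3) against all UMIs (log axis) of each NK cell at day 7. Each point is a cell and the dashed line parts cells with at most 2 such UMIs from the rest, 101 of 197 above it in control day 7 and 41 of 423 in L-fuc day 7.

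Markers of other cells were also present in the NK cells. Macrophage markers outside the rule (7 genes, led by Apoe at day 7) summed to 418 CPM in control day 7 and 159 in L-fuc day 7, and to 561 and 114 in marker-limited NK cells. Dendritic cell markers (10 genes, led by Cd74, the invariant chain of class II molecules) summed to 2419 and 1637 CPM, and to 2151 and 773 in marker-limited NK cells, and B cell markers (6 genes, led by Ighm) to 40.4 and 57.6. T cell markers outside the rule (11 genes, led by Trbc1) summed to 186 and 290 CPM, and in the other direction, to 410 and 363, in marker-limited NK cells. Gamma-delta T cell markers (9 genes) summed to 41.7 and 112 CPM, and to 82.9 and 146. Mast cell and basophil markers (7 genes) summed to 27.8 and 220 CPM, led by Cpa3 in L-fuc day 7. In marker-limited NK cells they summed to 34.1 and 21.7 CPM, from 7 and 29 UMIs, with intervals that overlapped. The list does not hold the mast cell proteases Mcpt1 and Mcpt2, which stood at 2327 and 1613 CPM in L-fuc day 7, with 98.4% and 97.9% of those UMIs in 2 cells each. Neutrophil markers stood at 5.05 and 9.86 CPM, markers of type 2 and 3 innate lymphoid cells at 59.4 and 42.0, and platelet and endothelial markers at 17.7 and 35.8. Red cell markers (5 genes, led by the globin Hbb-bs) summed to 1298 and 7097 CPM and were 0 in the other 3 libraries. Hbb-bs had a UMI in 25.6% of NK cells of control day 7 and 63.3% of L-fuc day 7 after each cell was thinned to 1500 UMIs, and in 18.3% and 54.8% of macrophages, so that it was spread over cell types. The part of these transcripts in the differences below was not tested.

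In the T cell receptor libraries, which the rule did not use, few NK cells had a contig of the alpha or beta chain (TRA or TRB). Contigs of other chains were not counted, so the check does not cover gamma-delta T cells. A productive receptor contig of the same pool was found for 5 of 644 NK cells (0.776%), against 1183 of 1977 T cells (59.8%) and 7 of 4153 macrophages (0.169%), which were taken by at least 10 C1q UMIs and no Cd3 UMI. All 5 were in control day 7 (2.54% of 197), and 0 of 423 were found in L-fuc day 7, which allows a share of up to 0.868%. Of T cells, 47.4% had a contig in control day 7 and 60.6% in L-fuc day 7, so many were missed in both. Matched to the receptor libraries of the other pools, where no match should be, 2 NK cells (0.311%) had a contig.

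Transcripts of receptor constant regions were nevertheless common in NK cells, which are known to transcribe some of these loci without rearranging them. Any of Trac, Trbc1, Trbc2 and Trdc was found in 73 of 197 NK cells of control day 7 (37.1%) and 257 of 423 of L-fuc day 7 (60.8%), against 6.20% and 7.95% of macrophages. They were mainly Trbc1 (19.3% and 43.0% of NK cells) and Trdc (8.12% and 22.9%), while Trac, the constant gene of the alpha chain, was in 6.60% and 3.55% of NK cells and in 30.3% and 55.8% of T cells. Without the NK cells that held any of them, 124 and 166 were left, the ratio per kept cell was 2.65 (2.09 to 3.37), and the ratio per T cell was 1.13 (0.888 to 1.43), no longer outside counting error. The removal was made on NK cells alone and took a larger part of those of L-fuc day 7, so both ratios fell by its construction. NK cells with such a UMI were deeper, at a median of 2943 against 2110.5 UMIs in control day 7 and 3613 against 2957.5 in L-fuc day 7. Gzma in the NK cells left stood at 2087 CPM in control day 7 and 8681 in L-fuc day 7.

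The cytotoxic granule genes were higher in NK cells of L-fuc day 7 than of control day 7. Of 15 members with at least 30 UMIs, 8 were at least 2-fold higher and 0 lower, with a median log2 ratio of 1.17, where 4.67% of all 8216 genes tested were 2-fold higher and 10.7% 2-fold lower, with a median of -0.12. In marker-limited NK cells 6 of 15 were higher and 0 lower, with a median of 0.73, where 6.48% of 5729 genes were higher and 7.45% lower, with a median of -0.02. Ratios are on the log2 scale of CPM with a pseudocount of 1 UMI, and genes of the rule are left out of all counts. The 5 members past 2-fold in both sets of cells were Gzma, Gzmb, Gzmc, Prf1 and the granzyme inhibitor Serpinb6b. Serpinb6b had fewer than 30 UMIs in control day 7 and reached the minimum only through L-fuc day 7. Its place in the counts follows from that minimum. Gzmc rested on 2 and 42 UMIs, the latter in 7 of 423 cells, so that it reached the minimum of 30 only through L-fuc day 7 and its place in the counts follows from that minimum, and in marker-limited NK cells its interval of -0.06 to 7.84 held 0. Gene positions below are those of GENCODE vM21 on GRCm38.

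Gzma (granzyme A, a serine protease; chr13:113093825-113100981) stood at 3717 CPM in pretreatment day 0, 2294 in control day 7, 9734 in L-fuc day 7, 8555 in control day 21 and 5871 in L-fuc day 21. Its log2 ratio at day 7 was 2.09 (2.02 to 2.16), and 1.86 (1.76 to 1.97) in marker-limited NK cells, from 3536 and 12863 CPM. Control day 7 was the lowest of the 5 libraries and L-fuc day 7 the highest. Gzmb (granzyme B, which triggers apoptosis; chr14:56258838-56262260) stood at 242, 187, 1015, 1524 and 1473 CPM in the same order. Its log2 ratio was 2.44 (2.20 to 2.69), and 1.86 (1.53 to 2.22) in marker-limited NK cells. Both day 21 libraries were above L-fuc day 7 for Gzmb, from 13 and 74 UMIs. Prf1 (perforin; chr10:61297833-61304680) stood at 348, 217, 755, 1641 and 995 CPM, with a log2 ratio of 1.79 (1.57 to 2.03) at day 7 and 1.08 (0.78 to 1.40) in marker-limited NK cells. Srgn, the proteoglycan that packs granule proteins, did not follow Prf1 in marker-limited NK cells, with a log2 ratio of 0.07 (-0.15 to 0.30).

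These genes were also higher in L-fuc day 7 outside NK cells, at lower levels, so the differences are not shown to be particular to NK cells. In T cells Gzma stood at 81.4 CPM in control day 7 and 157 in L-fuc day 7, Gzmb at 48.1 and 149, and Prf1 at 49.0 and 80.6. In macrophages Gzma stood at 71.1 and 371 CPM, Gzmb at 5.37 and 68.3, and Prf1 at 5.00 and 33.3. T cells also had more of several genes named below, among them Klrd1 (59.2 and 184 CPM), Hspa1a (198 and 529), Klre1 (5.41 and 15.6) and S1pr5 (1.71 and 3.96). Cd247 (59.8 and 164), Itgb2 (91.7 and 179), Selplg (161 and 339.5), Ifng (116 and 389) and Ccl3 (139 and 397) were higher in T cells too. Tigit had a UMI in 20.2% and 33.65% of T cells, without thinning. Other genes named below were lower in T cells, among them Mki67 (187 and 101 CPM), Zeb2 (191 and 81.0) and Egr1 (464 and 244). Eomes was lower in T cells as well (34.7 and 26.3) but higher over all NK cells. The T cells and macrophages were not limited on tumor markers.

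The difference in Gzma and Prf1 was spread over cells. The median NK cell had 8.05 Gzma UMIs per 10000 in control day 7 and 93.0 in L-fuc day 7, and 70 of 197 and 66 of 423 cells had none. In L-fuc day 7 a cell had a median of 33 Gzma UMIs, the middle cells ran from 7 to 65, and the highest had 275. After thinning to 1500 UMIs, which left out 28 of 96 and 24 of 378 marker-limited NK cells, Gzma was found in 70.6% (58.3 to 81.0) and 85.9% (81.8 to 89.3) of them, and unthinned in 68.8% and 85.2%. Prf1 was found in 30.9% (20.2 to 43.3) and 60.5% (55.2 to 65.6), and unthinned in 43.8% and 73.8%. Macrophages of the same libraries, which should lack both, showed Gzma in 5.3% and 8.8% and Prf1 in 0.9% and 3.1%. Among marker-limited NK cells of 2000 to 4000 UMIs, Gzma stood at 3873 CPM in control day 7 and 13580 in L-fuc day 7, from 35 and 200 cells whose depths within that range were not matched further.

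**Figure D3:**
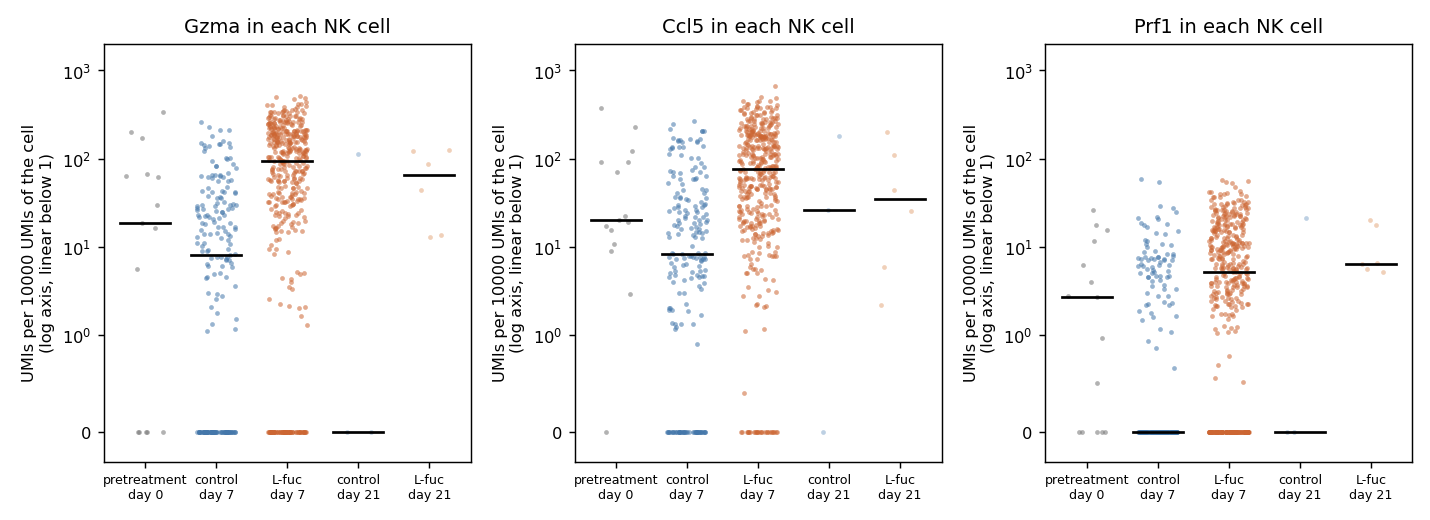
Gzma, Ccl5 and Prf1 in each NK cell as UMIs per 10000 UMIs of the cell (log axis, linear below 1) in the 5 libraries. Each point is a cell and each black line the median; the Gzma medians are 18.6, 8.05, 93.0, 0 and 64.8 from pretreatment day 0 to L-fuc day 21.

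Activating receptors and adaptors were higher at day 7 when all NK cells were counted and less so in marker-limited NK cells. Of 20 members tested, 12 were 2-fold higher and 0 lower (median log2 ratio 1.13), but in marker-limited NK cells it was 2 of 19 higher and 0 lower (median 0.48). The shares over all genes given above for the granule list hold for this and all later lists, so 2 of 19 is to be read beside 6.48%. The 2 were Klre1, a lectin-like receptor that pairs with Klri chains, and Cd247, the CD3 zeta signalling chain. Cd247 had fewer than 30 UMIs in control day 7 and reached the minimum of 30 only through L-fuc day 7. Its place in the count follows from that minimum. Klre1 stood at 106, 75.8, 271, 1172 and 259 CPM in the 5 libraries, and its log2 ratio at day 7 was 1.83 (1.45 to 2.25), or 1.21 (0.69 to 1.79) in marker-limited NK cells. Tyrobp, the DAP12 adaptor of several NK receptors, stood at 1980, 789, 2283, 2344 and 1871 CPM, with control day 7 again lowest. Its log2 ratio was 1.53 (1.41 to 1.66), and 0.98 (0.82 to 1.16) in marker-limited NK cells. Klrk1, the NKG2D receptor, went from 1.15 (0.84 to 1.48) to 0.47 (0.07 to 0.91).

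Of 11 inhibitory receptors, 6 were 2-fold higher and 0 lower in all NK cells (median 1.41), and 5 higher and 1 lower in marker-limited NK cells (median 0.97). The 5 were Klra1, Klra3, Klra7, Klrg1 and Tigit, each past 2-fold in both sets, and the lower gene was Lilrb4a, an inhibitory receptor known mainly from myeloid cells, at -1.99. Klra1 rested on 1 UMI in control day 7 and 55 in L-fuc day 7. Klra1, Klra7, Klrg1 and Tigit had fewer than 30 UMIs in control day 7 and reached the minimum only through L-fuc day 7. Their place in the count follows from that minimum. Klra7 (a Ly49 receptor) stood at 166, 32.9, 129, 0 and 99.5 CPM, with a log2 ratio of 1.95 (1.39 to 2.62), and 1.70 (0.82 to 2.81) in marker-limited NK cells. Klra3 stood at 136, 85.9, 254, 234 and 19.9 CPM, with log2 ratios of 1.55 and 1.30. The Klra genes are near-identical copies that vary between mouse strains, and the reads were aligned to a C57BL/6 genome, so the share of each copy is uncertain in C3H/HeJ mice. Klrg1, a receptor for cadherins on mature NK cells, stood at 45.3, 29.1, 78.4, 0 and 159 CPM, with log2 ratios of 1.41 and 1.19. Tigit, a checkpoint receptor for nectin-like ligands, had 7 UMIs in control day 7 and 78 in L-fuc day 7. In marker-limited NK cells Tigit had 0 and 73 UMIs. That is at least 3.73-fold higher if the 0 stood for at most 3 UMIs, with the counting error of the 73 left out. Klrd1 (CD94), by contrast, had log2 ratios of 1.57 and 0.97, and Klrc1 (NKG2A), its partner, 0.85 and -0.12 (-0.59 to 0.37).

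**Figure D4:**
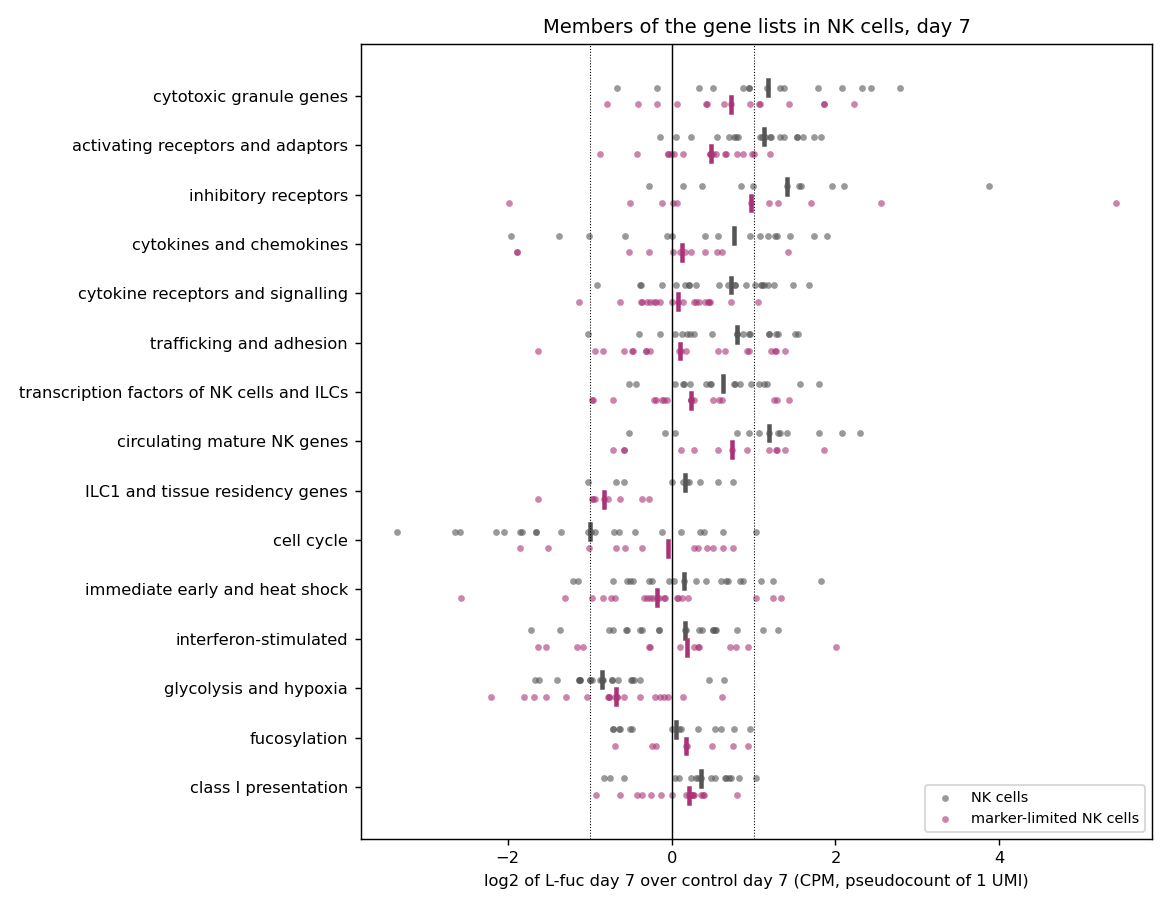
Log2 ratio of L-fuc day 7 over control day 7 (CPM with a pseudocount of 1 UMI) for each member of the gene lists with at least 30 UMIs, in all NK cells and in marker-limited NK cells. Points are genes, thick marks are list medians and dotted lines mark 2-fold; the cytotoxic granule genes have medians of 1.17 and 0.73 and the glycolysis and hypoxia genes -0.85 and -0.68.

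Among cytokines and chemokines, 7 of 16 members were 2-fold higher and 3 lower in all NK cells (median 0.76), against 1 higher and 2 lower of 12 in marker-limited NK cells (median 0.13). The 1 was Ccl5, a chemokine for T cells and dendritic cells (chr11:83525778-83530518). Ccl5 stood at 4352, 2388, 8919, 14180 and 8080 CPM, with a log2 ratio of 1.90 (1.83 to 1.97), and 1.42 (1.32 to 1.52) in marker-limited NK cells. Control day 7 was lowest over all NK cells, while in marker-limited NK cells it stood at 4361 CPM, beside the 4352 of pretreatment day 0. In T cells Ccl5 stood at 2006 and 3854 CPM at day 7. Xcl1, which draws type 1 dendritic cells, stood at 257, 246, 520, 586 and 259 CPM, and its log2 ratio of 1.07 (0.85 to 1.30) was 0.10 (-0.17 to 0.39) in marker-limited NK cells. Ccl3 went from 1.18 to 0.01 (-0.32 to 0.37) and Ifng, the interferon of NK and T cells, from 1.28 to 0.24 (-0.36 to 0.89), so their differences were within counting error in marker-limited NK cells. Ccl4 was 0.41 in all and -0.52 (-0.74 to -0.31) in marker-limited NK cells. The 2 lower members, Cxcl10 and Vegfa, are known mainly from myeloid and tumor cells, and each had a log2 ratio of -1.88 there, from 12 and 20 UMIs. Cytokine receptors and signalling genes had 8 of 22 members higher and 0 lower (median 0.73), and 1 higher (the signalling gene Stat5a, at 1.06, -0.83 to 4.26) and 1 lower (the TGF-beta receptor Tgfbr1, at -1.12) of 21 in marker-limited NK cells (median 0.08), shares below the 6.48% and 7.45% of all genes. Stat5a reached the minimum of 30 UMIs in marker-limited NK cells only through L-fuc day 7. Il2rb, the chain shared by the receptors of IL-2 and IL-15, had log2 ratios of 1.11 (0.90 to 1.32) and 0.46 (0.19 to 0.74).

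As a list, genes of mature circulating NK cells were higher in L-fuc day 7, and those of ILC1 and resident cells were not. Of 13 genes of mature circulating NK cells, 8 were 2-fold higher and 0 lower (median 1.19), and 5 and 0 in marker-limited NK cells (median 0.74), a list that holds Gzma. Of its higher members, Klrg1 reached the minimum of 30 UMIs only through L-fuc day 7, as did Cma1 and S1pr5 in marker-limited NK cells. The list summed to 3545 CPM in control day 7 and 12233 in L-fuc day 7, of which Gzma alone gave 2294 and 9734. Not every member was higher, and 11 of the 13 had a log2 ratio above 0 (10 of 13 in marker-limited NK cells). Zeb2, the lowest over all NK cells, stood at 250 CPM in control day 7 and 174 in L-fuc day 7, a log2 ratio of -0.52. S1pr5, the sphingosine receptor with which NK cells leave tissues, stood at 30.2, 37.9, 94.5, 117 and 219 CPM, with log2 ratios of 1.30 (0.75 to 1.93) and 1.38 (0.49 to 2.49). Irf8, a transcription factor of NK cell maturation, stood at 272, 195, 678, 1758 and 935 CPM, with log2 ratios of 1.80 (1.56 to 2.05) and 1.29 (0.95 to 1.66). For Irf8 control day 7 was lowest over all NK cells but stood at 351 CPM in marker-limited NK cells, above pretreatment day 0, and for S1pr5 the pretreatment value rests on 2 UMIs. Of 10 ILC1 and residency genes, 0 were higher and 1 lower (median 0.17), and in marker-limited NK cells 0 of 9 had a log2 ratio above 0 (median -0.83). The lower gene was Itga1, the CD49a integrin of resident cells, at 0, 73.3, 35.8, 0 and 0 CPM, with log2 ratios of -1.02 (-1.56 to -0.50) and -1.63 (-2.81 to -0.51). Itga1 was also lower in L-fuc day 7 in T cells, at 99.7 and 37.0 CPM, and in macrophages, at 49.9 and 17.2, so that its difference was not particular to NK cells. Itga2 (CD49b), the integrin of circulating NK cells, had log2 ratios of 0.04 and -0.58 (-1.15 to 0.02).

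Of 18 transcription factors of NK cells and other innate lymphoid cells, 5 were 2-fold higher and 0 lower (median 0.62), and 3 and 0 in marker-limited NK cells (median 0.23). The 3 were Irf8, Tbx21 and Tox. Tox, and Tbx21 in marker-limited NK cells, reached the minimum of UMIs only through L-fuc day 7. Their place in the count of 3 follows from that minimum. Tbx21 (T-bet, a T-box factor of cytotoxic lymphocytes) stood at 90.7, 54.3, 162, 469 and 318 CPM, with log2 ratios of 1.57 (1.12 to 2.08) and 1.43 (0.72 to 2.27). It was also higher in T cells, at 14.5 and 43.6 CPM. Eomes, the related T-box factor that marks NK cells against ILC1, stood at 227, 77.1, 162, 469 and 239 CPM, with 1.06 (0.67 to 1.49) and 0.27 (-0.23 to 0.80). The interval of Tbx21 lay above 0 in both sets of cells and that of Eomes only in all NK cells. After thinning, Tbx21 was found in 4.41% (0.919 to 12.4) of marker-limited NK cells of control day 7 and 29.1% (24.4 to 34.1) of L-fuc day 7, and Eomes in 23.5% (14.1 to 35.4) and 26.8% (22.3 to 31.8). Of 20 trafficking and adhesion genes, 6 were higher and 1 lower (median 0.80), and 4 and 1 in marker-limited NK cells (median 0.10). Itgb2, the beta chain of LFA-1, had log2 ratios of 1.51 (1.18 to 1.86) and 1.27 (0.76 to 1.83), and Selplg, a selectin ligand that needs fucose to bind, 0.95 (0.75 to 1.17) and 0.17 (-0.10 to 0.45).

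Glycolysis and hypoxia genes were lower in NK cells of L-fuc day 7, and cell cycle genes were lower over all NK cells but not as a group in marker-limited NK cells. Of 23 glycolysis and hypoxia genes, 0 were 2-fold higher and 7 lower (median -0.85), and in marker-limited NK cells 0 higher and 6 lower of 20 (median -0.68). Ndrg1, a gene induced by low oxygen, stood at 0, 270, 102, 0 and 0 CPM, with log2 ratios of -1.40 (-1.69 to -1.12) and -2.20 (-3.16 to -1.36). The list summed to 3566, 9318, 5286, 2578 and 2985 CPM in all NK cells, and to 4717 and 2984 CPM in marker-limited NK cells of control day 7 and L-fuc day 7. The tumor markers moved with this list, and their part in it was not tested. Of 22 cell cycle genes, 1 was higher (Mcm2, a replication factor, at 1.03) and 11 lower (median -1.0), but in marker-limited NK cells 0 were higher and 3 lower of 12, and 6 of 12 had a log2 ratio above 0 (median -0.04). Mki67, a marker of cycling cells, stood at 212, 92.2, 25.4, 0 and 0 CPM, with log2 ratios of -1.83 (-2.41 to -1.32) and -1.84 (-2.88 to -0.89), the latter from 15 and 26 UMIs. Top2a, a topoisomerase of dividing cells, had -1.66 and -1.50 (-2.41 to -0.63).

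The fucosylation list held genes that make or use the activated form of fucose, fucosidases, other glycosyltransferases and the ligand carrier Selplg. It had 0 of 14 members higher and 0 lower (median 0.05), and 0 of 8 in marker-limited NK cells (median 0.18). Fut8, the enzyme that adds core fucose, stood at 60.4, 45.5, 27.5, 0 and 159 CPM, with log2 ratios of -0.71 (-1.36 to -0.07) and 0.19 (-1.30 to 2.17). Class I presentation genes had 1 of 17 higher and 0 lower (median 0.36), and 0 in marker-limited NK cells (median 0.22). Interferon-stimulated genes had 2 higher and 2 lower of 21 (median 0.16), and 1 and 4 of 14 in marker-limited NK cells (median 0.19), where the 4 lower were Isg15, Bst2, Rtp4 and Gbp2, beside 7.45% of all genes lower. Zbp1, a nucleic acid sensor, was the 1 gene 2-fold higher in both sets of cells, with log2 ratios of 1.12 and 2.01 (0.50 to 4.41), the latter from 3 and 84 UMIs, so that it reached the minimum there only through L-fuc day 7. Immediate early and heat shock genes had 3 higher and 2 lower of 21 in both sets (medians 0.16 and -0.18). Hspa1a, a stress-induced chaperone, stood at 242, 123, 435, 0 and 219 CPM, with log2 ratios of 1.82 and 1.23 (0.81 to 1.70), and the immediate early gene Egr1 had -1.14 and -1.30 (-1.69 to -0.91).

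The highest and lowest ratios over all genes in all NK cells mostly named other cell types. The 10 highest were Mcpt1, Mcpt2, Mcpt9, Tph1, Tpsab1, Igkv12-41, Igkv9-124, Ifitm1, Cpa3 and Mcpt8, mostly mast cell or basophil genes and antibody light chain segments. Mcpt9, Tph1, Igkv12-41 and Igkv9-124 had 0 UMIs in control day 7, so they reached the minimum only through L-fuc day 7 and their rank follows from the pseudocount. Mcpt1, a mast cell protease, had 26 UMIs in control day 7 and 4483 in L-fuc day 7, and 98.4% of the latter were in 2 cells. In marker-limited NK cells its log2 ratio was -0.31 (-1.22 to 0.71). Among the 10 lowest were Ccl7, Ccl2, Cenpf, Bgn, Tpx2, Matn4, Fnbp1l and Gm42047. Ccl7 and Ccl2, monocyte chemokines, had log2 ratios of -5.71 and -4.53.

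In marker-limited NK cells the 10 highest were Tigit, Nudt16, Ncbp3, Fbxw8, Nt5c2, Igkv12-41, Igkv9-124, Phkg1, Rac3 and Rgs16, and all 10 had 0 UMIs in control day 7. Each reached the minimum of 30 UMIs only through L-fuc day 7, whose marker-limited NK cells held 1337757 UMIs against 205022, so their rank follows from the pseudocount and is no measured ratio. The 10 lowest were Cd14, Lama4, Plk2, Slpi, Cxcl2, Map2, Il1rn, Me1, Il1b and Gm46620, several of them myeloid genes. Cxcl2, a neutrophil chemokine, stood at 1063 CPM in control day 7 and 70.3 in L-fuc day 7, a log2 ratio of -3.89, and Il1b had -3.55. The marker limit did not use myeloid genes, and 206 of the 218 Cxcl2 UMIs left in control day 7 were in 2 of the 96 cells. Of the 384 genes 2-fold higher in all NK cells, 320 had enough UMIs to be tested in marker-limited NK cells and 130 were 2-fold higher there too (33.9% of the first list and 35.04% of the 371 of the second). Of the 878 lower, only 174 could be tested there and 141 of these were lower in both (16.1% of the first list and 33.0% of the 427 of the second), and 0 genes were called in opposite directions. With ratios centred on the median of all genes, 507 genes were 2-fold higher and 712 lower in all NK cells.

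NK cells of L-fuc day 7 also varied among themselves. Over 398 of them thinned to 1500 UMIs, the variance divided by the mean had a median of 1.06 over 2829 genes, where 1 is what counting alone gives. The 10 highest were Hbb-bs at 184, Mcpt1 at 175, Mcpt2 at 109, Hba-a1, Gm42418, Tpsab1, Hbb-bt, Cxcl2, Ccl6 and Ccl5 at 16.9. Globins, mast cell proteases and myeloid chemokines led, and among genes of NK cells Ccl5 and then Gzma, at 16.0, varied most. Gm42418, which overlaps ribosomal RNA, took 24676, 83929, 69656, 21681 and 16319 CPM of the NK cells in the 5 libraries.

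Against T cells of the same libraries, NK cells showed a cytotoxic and innate receptor set. It is given as a description, since the rules part the groups by Cd3 and also by Ncr1 and Klrb1c. Cells with both Cd3 and Ncr1 or Klrb1c UMIs are in neither group, and their part in the counts below was not tested. Of 4068 genes with at least 100 NK UMIs, 112 were at least 2-fold higher in NK cells and 35 lower. Both counts used the mean log2 ratio of the day 7 libraries. The minimum was set on NK UMIs alone, so genes with few NK UMIs could not enter, however high in T cells. Counts of higher and lower genes, here and for the lists below, are therefore tilted toward higher. The 20 highest were Gzma, Klrb1a, Aoah, Klra3, Klra7, Klrb1f, S1pr5, Klre1, Clnk, Cited4, Klri2, Adamts14, Atp1b1, Rbpms, Serpinb9b, Cma1, Itga2, Tyrobp, Il12rb2 and Samd3. Gzma had a mean log2 ratio of 5.38 and was higher in NK cells in 5 of 5 libraries, as were Klrb1a (5.05), Klra3 (4.86) and S1pr5 (4.31). Of 17 activating receptors and adaptors 12 were 2-fold higher in NK cells and 0 lower, and of 13 genes of mature circulating NK cells 10 and 0. Il7r, the IL-7 receptor of T cells and resident lymphoid cells, had a mean log2 ratio of -1.37 and Ifng -1.49, each lower in NK cells in all 5 libraries. With 3 and 6 NK cells at day 21, these directions there rest on few UMIs or none, except for Gzma. In control day 21 and L-fuc day 21, Il7r stood at 0 and 0 CPM, Ifng at 0 and 79.6, S1pr5 at 117 and 219 and Klra3 at 234 and 19.9. Of 10 cell cycle genes 0 were higher and 4 lower in NK cells on the day 7 mean. In pretreatment day 0 Mki67 was higher in NK cells, at a log2 ratio of 1.87 from 14 UMIs. Hmgb2, at 1.48, and Stmn1, at 1.37, were higher there too. Those Mki67 UMIs lay in 2 of the 15 NK cells of that library (13.3%), beside 10.8% of its T cells. In it, 2 NK cells of more than 10000 UMIs held 45.7% of all NK UMIs.

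**Figure D5:**
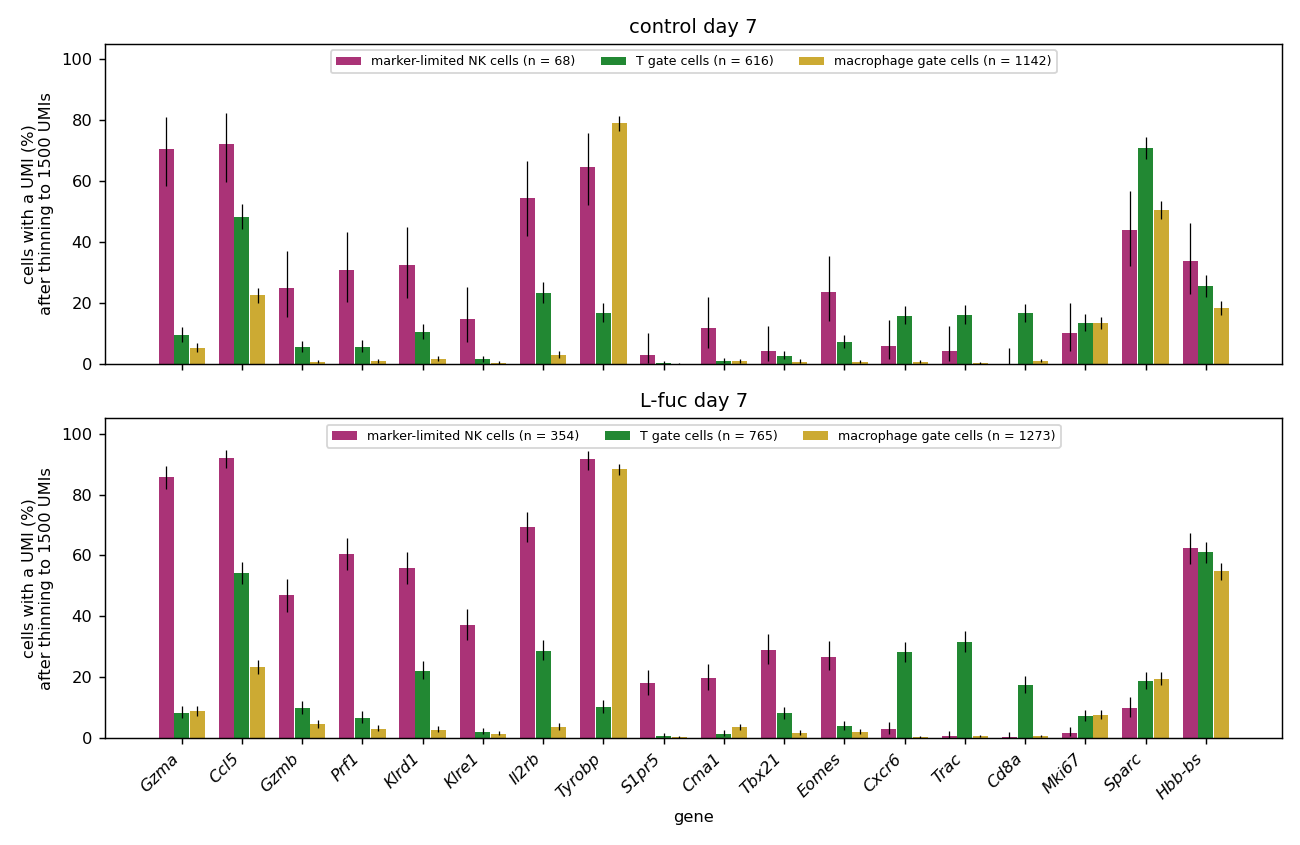
Share of cells (%) with a UMI of each gene after thinning to 1500 UMIs, in marker-limited NK cells, T gate cells and macrophage gate cells of control day 7 and L-fuc day 7, with exact binomial 95% intervals. Gzma is found in 70.6% and 85.9% of the marker-limited NK cells, and Hbb-bs is found in all 3 cell types of L-fuc day 7.

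The remaining libraries held few NK cells. The 15 of pretreatment day 0 had no cell with more than 2 tumor marker UMIs. Their gene values are given above as levels or as ratios to T cells of that library, and no gene ratio to another library was taken. Class II and B cell transcripts in that library came from few cells, with 342 of its 343 Cd74 UMIs and 127 of its 128 B cell marker UMIs in the highest cell of each. In L-fuc day 21, 176 of 184 Cd74 UMIs were in 1 cell. The 3 NK cells of control day 21 had 769, 1200 and 6564 UMIs and 0, 0 and 73 Gzma UMIs. Thus 1 deep cell gave the library its 8555 CPM. The same cell held 119 of the 121 Ccl5 UMIs and all 14 Prf1 UMIs of control day 21. The 6 of L-fuc day 21 had 19, 6, 8, 85, 81 and 96 Gzma UMIs, each with at least 1. Against pretreatment day 0, the NK share of kept cells in control day 7 was 1.08-fold (0.638 to 1.96), and NK cells per T cell were 6.73-fold (3.98 to 12.2), since T cells were 0.160-fold as large a share of kept cells. Restricted to marker-limited NK cells, these ratios were 0.526 (0.303 to 0.976) and 3.28 (1.89 to 6.08). The share per kept cell thus turned from about equal to lower. The limit was set on NK cells alone and removed none of those in pretreatment day 0.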

How the data were processed

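NK cells were analysed in 5 pooled gene expression libraries and their 5 T cell receptor libraries. The authors aligned reads to mm10 with Cell Ranger (version 3.0 per the submitters' notes, which also name Seurat 4.0, and 7.1.0 per the file headers), and deposited a UMI count for each of 32285 genes and each called barcode, without normalization. For the receptor libraries the deposited contig annotations, with a count of UMIs per contig, served only to mark barcodes with a productive TRA or TRB contig. The clonotype and consensus files were not used.

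The members, gene lists and tests were chosen with earlier results of these data known. UMIs were summed over the NK cells of a library and scaled to CPM, and log2 ratios, with 1 UMI added as a pseudocount, were taken for genes whose UMIs in the compared libraries summed to 30 or more. A gene with fewer than 30 UMIs in 1 library could thus enter through the other alone, so its place in a count follows from that minimum. Without replicates a call means a 2-fold difference, and no p-value was computed. Intervals are exact (Clopper-Pearson, Poisson or conditional). Comparisons of all genes needed 30 NK cells per library, so none was made with pretreatment day 0 or at day 21. Receptor constant genes, Cd3, C1q, Ncr1, Klrb1c and Nkg7 checks used raw counts.

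Named genes were the rule and list genes, the 10 highest and 10 lowest ratios, the 20 genes highest against T cells and the 10 most variable, except that 2 of the 10 lowest are not reported here. Of 385 symbols on the lists, 4 matched no row. The marker limit, the 1500 to 4000 UMI range and the Ptprc requirement were alternatives chosen after seeing the data. Scrublet in scanpy 1.11.5 marked doublets only in an alternative, and otherwise none were removed. The scripts ran in Python 3.11.15 with pandas 2.3.3, scipy 1.17.1, matplotlib 3.10.9 and numpy 2.4.6, and the ratio steps were tested on simulated data. Promoters are from RefSeq (GRCm38.p6) and gene positions from GENCODE vM21.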

Additional observations from a re-analysis of the deposited data

How the results depend on the processing

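The day 7 ratio of NK shares of kept cells (4.25) was 3.41 with at least 200 genes per cell, 6.74 with at least 2 UMIs of Ncr1 and Klrb1c, 6.83 with no C1q UMI, 7.00 when cells were thinned to 1500 UMIs before the rule, 2.65 without cells holding receptor constant transcripts, 2.98 per cell with a Ptprc UMI and 7.80 with the marker limit. At day 21 the ratio of 2.66 was 0.665, from 1 and 2 cells, without cells holding receptor constant transcripts. NK cells per T cell at day 7 (1.81) were 2.86 with at least 2 UMIs and 1.13 without receptor constant transcripts. They were 1.5 with no C1q UMI and 3.32 with the marker limit. That limit was set on NK cells alone, here and for the ratio of 7.80, and so was the removal of cells holding receptor constant transcripts. The 384 genes 2-fold higher became 625 with at least 10 UMIs per gene, 179 with at least 100, 1420 with no minimum, 222 without receptor constant transcripts and 254 in marker-limited NK cells of 1500 to 4000 UMIs. The 878 lower became 1527, 254, 2633, 420 and 147 in the same order, 324 when thinned, 485 with at least 2 UMIs and 427 with the marker limit. Of all calls, 30.4% were higher, against 24.0% (402 higher, 1271 lower) with the mean of per-cell CPM, 41.6% (507 higher, 712 lower) when ratios were centred on the median of all genes, 45.3% when thinned, 46.5% with the marker limit and 63.3% at 1500 to 4000 UMIs. Over 26 of the named genes, picked for this tally, and 436 values, 358 stayed within the counting interval, 77 moved and 1 reversed, Xcl1, at -0.77 in marker-limited NK cells of 1500 to 4000 UMIs. Over all 213 list genes tested in both sets of cells, 48 changed sign with the marker limit, 41 of them from higher to lower, among them Ccl4, Klrc1 and, of those past 2-fold, Cish (1.13 to -0.36). The ILC1 and residency median went from 0.17 to -0.83. Gzma (1.66 to 2.33), Gzmb (1.53 to 2.84), Prf1 (1.08 to 2.15) and Ccl5 (1.39 to 2.02) were past 2-fold under all 17 settings. Scrublet marked no cell at day 7 by its automatic threshold, so the highest scores up to the expected rate were used, which removed 17 NK cells of control day 7 and 8 of L-fuc day 7. No paired analysis was possible because each condition was 1 pool of mice. With 1 library per condition, differences between mice, cohorts and libraries cannot be told apart from that of L-fuc. Comparisons across all genes with pretreatment day 0 were not run, since 15 NK cells are under the minimum of 30.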
